A study of Mus musculus with 8 samples.

Results

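Genes of the complement system and its recognition arm, 9 of the 46517 genes in the count table, were described across the cells of the adult mouse liver. They were chosen by name: the C1q subunits *C1qa*, *C1qb* and *C1qc*, the ficolin *Fcna*, the components *C4b* and *C3*, factor B (*Cfb*), and the terminal components *C6* and *C7*. All 9 were found as rows of the table. Single cells from dissociated livers of male and female mice had been sorted into plates and sequenced with Smart-seq2, a full-length method that reads polyadenylated RNA and does not keep the strand. The 3491 cells on 22 plates, each plate from 1 sex, made 8 samples: a male and a female pool for each of the mesenchymal, endothelial, immune and parenchymal (labelled epithelial) cell classes.

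The pools held 998 male and 339 female mesenchymal cells, 655 and 451 endothelial cells, 255 and 396 immune cells, and 358 and 39 parenchymal cells. The female parenchymal pool consisted of 37 cholangiocytes and 2 hepatocytes, and the 339 female mesenchymal cells came from a single plate. Per the study's methods the mice were untreated adults on a C57Bl6 background, either without a transgene or heterozygous for a reporter (Pdgfrb-GFP, Pdgfra-H2bGFP, Acta2-GFP, Cspg4-dsRED or Cldn5-GFP) or for several of them. Cells were enriched by the GFP reporters or by antibodies (against CD31, VE-cadherin, EPCAM, CD68 and PDGFRα), hepatocytes were taken without enrichment, and the organ was not perfused. The shares of cell types in a pool were therefore set by the sort. The cell labels did not tie cells to mice, so the 2 pools of a class were its only replicates, and p-values measured the spread between such pools. The study made the classes by grouping clusters of these same transcriptomes by marker genes, so differences between classes are in part built in.

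Complement is a set of plasma and tissue proteins that mark surfaces for clearance and can pierce membranes. C1q, built from the products of *C1qa*, *C1qb* and *C1qc*, recognises bound antibody and dying cells and starts the classical pathway, while ficolins and mannose-binding lectins recognise sugars and acetylated groups and start the lectin pathway. Both pathways cleave C4 and C2 to activate C3, the component on which all routes meet, and factor B forms the C3-cleaving enzyme of the alternative pathway. The terminal components C5 to C9 assemble into the membrane attack complex, with C6 and C7 joining early. Hepatocytes are known as the main source of most circulating complement proteins and macrophages as the main source of C1q.

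In the GENCODE vM21 annotation of GRCm38, the C1q genes lay next to each other on the minus strand of chromosome 4: *C1qb* at chr4:136880129-136886187, *C1qc* at chr4:136889804-136893065 and *C1qa* at chr4:136895917-136898803. *Fcna* (chr2:25624666-25628030, minus strand) lay inside *Fcnaos*, an antisense RNA gene on the opposite strand. *C4b* (chr17:34728380-34743882), *Cfb* (chr17:34856374-34862518) and *C3* (chr17:57203970-57228136) shared chromosome 17, and *C6* (chr15:4727175-4814967) and *C7* (chr15:4988762-5063740) shared chromosome 15. Of the 50-base windows of the *C4b* transcript 35.2% also occurred in *C4a*, and of those of *Cfb* 81.4% occurred in *Gm20547*, an overlapping gene of the same strand. Reads of *C4b* and *Cfb* may therefore be split with these genes, and levels of both are uncertain to that extent. The other 7 genes shared no window with another transcript of the same strand, and on the opposite strand 7 of the 1325 windows of *Fcna* (0.528%) occurred in *Fcnaos*.

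Upstream sequences of genes that were high in the same cells are shown so that the flanks of genes high in Kupffer cells can be read beside that of *C7*, which was high in fibroblasts. RefSeq promoter windows on GRCm38.p6 matched 6 of the 9 genes (not *C1qa*, *C4b* and *Cfb*). From each, the bases that lie before the annotated gene were kept, at most 250. Capitals mark GAGGAA, a core of sites of the macrophage factor PU.1, or TTGCNNCAA, a form of the C/EBP motif, each searched on both strands, with motifs chosen after results of these data were known. GAGGAA occurred in 6252 of 27025 mouse promoter windows (23.1%) and TTGCNNCAA in 481 (1.78%). These shares are for full windows of 250 bases, while the stretches kept for *C1qc* (99 bases), *Fcna* (194 bases) and *C6* (215 bases) were shorter.
C1qb, chr4:136886201-136886450, minus strand: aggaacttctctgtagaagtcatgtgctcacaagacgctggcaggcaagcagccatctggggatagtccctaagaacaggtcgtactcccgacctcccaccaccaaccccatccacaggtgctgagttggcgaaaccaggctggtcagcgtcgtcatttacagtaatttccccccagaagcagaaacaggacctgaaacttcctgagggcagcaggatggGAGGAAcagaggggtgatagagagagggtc
C1qc, chr4:136893066-136893164, minus strand: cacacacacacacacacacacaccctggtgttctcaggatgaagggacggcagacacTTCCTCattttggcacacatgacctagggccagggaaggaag
Fcna, chr2:25628031-25628224, minus strand: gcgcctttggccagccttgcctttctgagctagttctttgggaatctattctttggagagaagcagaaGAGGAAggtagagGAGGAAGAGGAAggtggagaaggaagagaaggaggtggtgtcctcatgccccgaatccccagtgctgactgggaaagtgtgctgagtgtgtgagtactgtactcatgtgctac
C6, chr15:4726960-4727174, plus strand: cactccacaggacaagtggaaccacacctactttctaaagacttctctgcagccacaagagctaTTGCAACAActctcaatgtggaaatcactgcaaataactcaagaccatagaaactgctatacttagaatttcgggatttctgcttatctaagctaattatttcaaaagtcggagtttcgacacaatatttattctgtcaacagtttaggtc
C7, chr15:5063774-5064023, minus strand: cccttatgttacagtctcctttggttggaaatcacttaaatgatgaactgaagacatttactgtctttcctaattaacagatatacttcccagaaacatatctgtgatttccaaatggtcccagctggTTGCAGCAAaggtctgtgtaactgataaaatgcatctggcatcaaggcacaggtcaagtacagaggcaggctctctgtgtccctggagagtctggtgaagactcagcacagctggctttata
GAGGAA was found once in each of the windows of *C1qb* and *C1qc* (in the latter on the other strand, read as TTCCTC), and 3 times in that of *Fcna*. The window of *C6*, also high in Kupffer cells, held 0 matches of GAGGAA and 1 of TTGCNNCAA, and that of *C7* held 1 stretch that reads as TTGCNNCAA on both strands. The *C3* window held neither motif.

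The 9 genes fell into a set highest in Kupffer cells (*C1qa*, *C1qb*, *C1qc*, *Fcna* and *C6*), a stromal set (*C3*, *C4b* and *C7*) and *Cfb*, which was spread over several classes. Levels are given as CPM, the counts of a gene summed over the cells of a group and scaled to a total of 1000000 gene counts. Of all *C1qa*, *C1qb* and *C1qc* counts in the data 83.2%, 82.7% and 82.4% came from the 469 cells annotated as Kupffer cells, the resident liver macrophages, as did 82.0% of *Fcna* and 83.0% of *C6* counts. Of *C7* counts 70.5% came from portal fibroblasts, which also held 49.6% of *C4b* and 43.7% of *C3* counts. These shares depend on how many cells of each type were sorted.

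**Figure D1:**
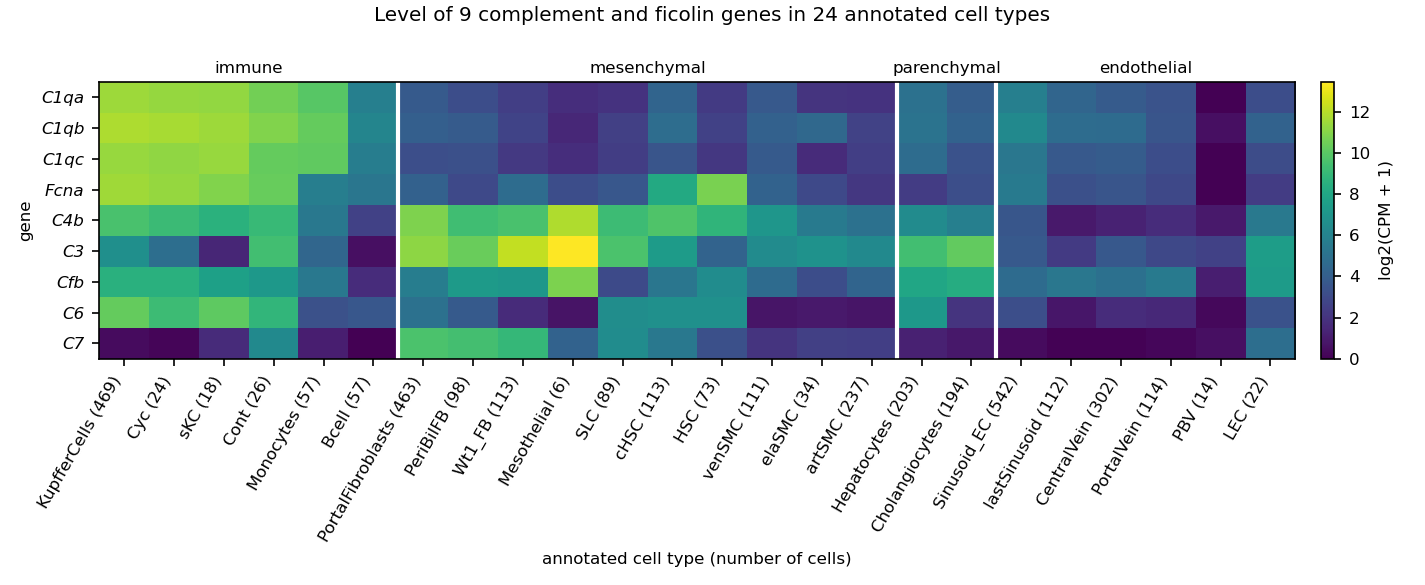
Level of the 9 genes (rows) in the 24 annotated cell types (columns, number of cells in brackets), as log2(CPM + 1) of the counts summed over both pools. The C1q genes, *Fcna* and *C6* were bright in the Kupffer cell, Cyc and sKC columns, with *Fcna* also bright in HSC at 1686 CPM, and *C7* was brightest in the 3 fibroblast columns, from 486 to 790 CPM.

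The C1q genes were high in immune cells and low in every other class. Kupffer cells made up 115 of the 255 male and 354 of the 396 female immune cells, so the immune pools also differ by make-up. *C1qa* measured 2028 CPM (male) and 2614 CPM (female) in the immune pools, and between 4.40 and 112 CPM in the other 6 pools. *C1qb* measured 2323 and 3298 CPM against 7.60 to 126 CPM. *C1qc* measured 2195 and 2264 CPM against 5.56 to 59.2 CPM. The highest of the other pools was each time the female parenchymal pool. In edgeR's quasi-likelihood test of the immune class against the mean of the other 3 classes (Benjamini-Hochberg adjusted over 24046 genes), the log2 difference was 6.50 ± 0.67 (standard error) for *C1qa* (adjusted p = 0.000848), 6.39 ± 0.63 for *C1qb* (adjusted p = 0.000705) and 7.01 ± 0.50 for *C1qc* (adjusted p = 0.000216).

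Among immune cells the C1q genes marked macrophages. In Kupffer cells *C1qa* measured 3847 CPM (115 male cells) and 2650 CPM (354 female cells), *C1qb* 4349 and 3329 CPM, and *C1qc* 4128 and 2300 CPM. All 469 Kupffer cells held at least 1 count of each of the C1q genes, and 464 (98.9%, exact 95% interval 97.5 to 99.7%) held at least 20 counts of each, an interval that covers counting error only. Cells annotated Cyc, which are cycling (5 male and 19 female), measured between 2275 and 3446 CPM for the C1q genes, and the 17 male cells annotated sKC (cluster i4c) between 2395 and 2804 CPM. In the 55 male cells annotated as monocytes *C1qa* measured 992 CPM, *C1qb* 1211 CPM and *C1qc* 1133 CPM, and in the 57 male B cells 54.1, 69.0 and 51.5 CPM.

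The monocyte annotation joined cells with and without C1q. Its 41 cells of the finer cluster i2c, which the study named monocyte-derived macrophages, measured 1547 CPM of *C1qa*, 1901 CPM of *C1qb* and 1749 CPM of *C1qc*. The 16 cells of cluster i7c, named dendritic cells, measured 17.96, 22.3 and 15.6 CPM. Of the i2c cells 39 held all 3 C1q genes and 25 held at least 20 counts of each. Of the i7c cells 10 held all 3, and 0 of 16 held at least 20 counts of each (exact 95% upper bound 20.6%).

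The C1q subunits are known to assemble in equal numbers, and their counts can be set side by side. Of the summed C1q counts of Kupffer cells 31.8% were *C1qa*, 39.0% *C1qb* and 29.2% *C1qc*, and of those of i2c 29.8%, 36.6% and 33.7%. Per kilobase of the longest coding transcript the levels of Kupffer cells were 2762 CPM for *C1qa*, 3234 CPM for *C1qb* and 2195 CPM for *C1qc*. The last depends on the length used, and was 1367 CPM per kilobase with all annotated exons merged (1931 in place of 1203 bases), while both lengths were equal for the other C1q genes. Over single Kupffer cells the Spearman correlation of *C1qa* with *C1qb* was 0.84 in 354 female and 0.45 in 115 male cells, and that of *C1qa* with *C1qc* 0.72 and 0.69; cells of a pool share plates, mice and sequencing, so these are descriptions.

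Among Kupffer cells, *C1qc* was lower in female than in male cells on every plate. It lay between 3775 and 4404 CPM (median 4208) on the 4 male plates with at least 5 Kupffer cells and measured 2162 and 3475 CPM on the 2 female plates. For *C1qa* the male plates (3464 to 3940 CPM) lay inside the range of the female plates (2477 and 4120 CPM), and for *C1qb* likewise (3911 to 4654 CPM against 3093 and 5332 CPM). With 1 pool of each sex no test was made, and sex cannot be told apart from plate and mouse. Kupffer cells of the sexes also fell into different clusters: 102 of the 111 cells of cluster i1c were male, and 167 of the 168 cells of i10c female.

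Outside macrophages, many of the cells with C1q counts also held counts of Kupffer cell markers (*Clec4f*, *Vsig4*, *Cd5l*, *Timd4* and *Folr2*). Of 1106 endothelial cells 205 held at least 20 C1q counts, and 148 of these (72.2%) also held at least 20 marker counts, against 14 of the other 901 cells (1.55%). The same held for 43 of 73 such mesenchymal cells (58.9%), for 51 of 76 such parenchymal cells (67.1%) and for 7 of 14 in the hepatocyte cluster p1 (50%). Of the 30 clusters e8, a sinusoidal cluster of 155 cells, had the highest C1q levels outside the immune class (*C1qa* 204, *C1qb* 251 and *C1qc* 144 CPM). There 60 of the 65 cells with at least 20 C1q counts held at least 20 marker counts, and 5 cells held 50% of the C1q counts. The finer cluster e12c (120 cells) had a C1q sum of 755 CPM, against 599 CPM in e8. In mesenchymal cells 6 of 1337 cells held 50% of the C1q counts. In B cells C1q counts were not confined to few cells: 44 of 57 (77.2%) held at least 20, and 41 of these 44 held at least 20 marker counts. The part of RNA or cells carried over from Kupffer cells in these values was not tested.

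**Figure D2:**
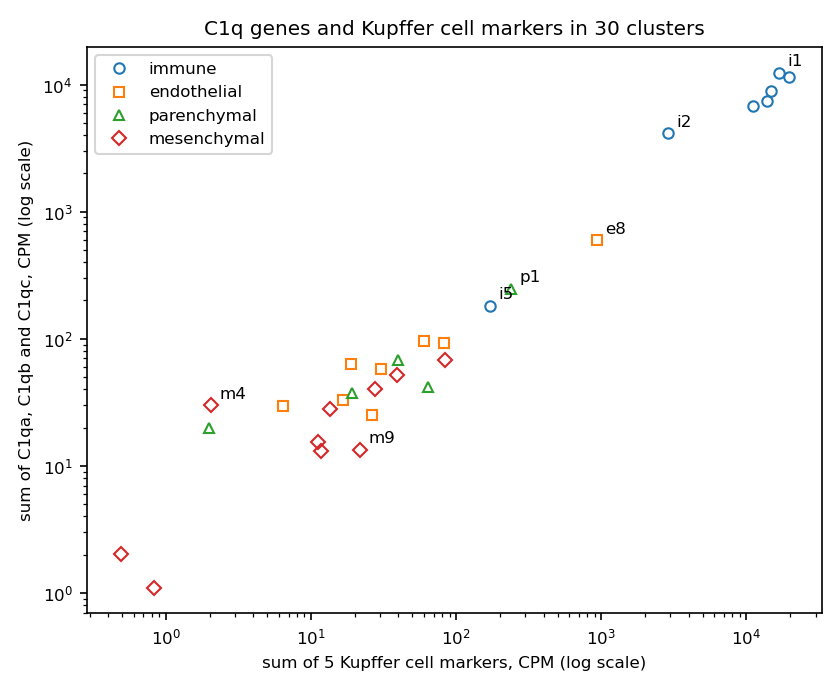
Summed CPM of *C1qa*, *C1qb* and *C1qc* (vertical axis, log scale) against the summed CPM of 5 Kupffer cell markers (horizontal axis, log scale) in the 30 clusters, with 1 point per cluster shaped by class. C1q counts per marker count ran from 0.531 in i7 to 14.75 in m4, and was 0.644 in e8, the endothelial cluster with the highest summed C1q CPM (599).

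*Fcna*, which encodes the plasma lectin ficolin A, was shared by Kupffer cells and stellate cells. In immune pools it measured 1534 CPM (male) and 2734 CPM (female), in mesenchymal pools 134 and 67.7 CPM, and in the other 4 pools between 2.31 and 71.4 CPM. The immune class was higher than the rest by 5.65 ± 0.90 on the log2 scale (edgeR, adjusted p = 0.00561). Kupffer cells measured 3399 CPM (male) and 2784 CPM (female), and the 4 male and 2 female plates overlapped (2646 to 4589 CPM against 2661 and 3828 CPM). Monocytes of the male pool measured 51.9 CPM, and *Fcna* counts per C1q count in that pool were 0.276 in Kupffer cells and 0.0156 in monocytes.

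Among mesenchymal cells *Fcna* was high in the cells annotated HSC, the hepatic stellate cells, which store vitamin A around the sinusoids. The 69 male HSC measured 1675 CPM and the 4 female HSC 1805 CPM. Cells annotated cHSC, which the study placed at the capsule, measured 202 CPM (91 male) and 531 CPM (22 female), and portal fibroblasts 10.3 and 32.9 CPM. Of the 73 HSC 64 held an *Fcna* count (87.7%, exact 95% interval 77.9 to 94.2%), and the levels on 5 male plates ran from 1118 to 6046 CPM with a median of 1588. The same cells held 3.91 CPM of *C1qa*, 5.02 CPM of *C1qb* and 3.59 CPM of *C1qc*, and their 5 Kupffer markers summed to 3.72 CPM. Per C1q count the HSC had 135 *Fcna* counts.

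*Fcnaos*, the antisense RNA, followed *Fcna* at a lower level, with 391 CPM in Kupffer cells, 282 CPM in HSC and 37.0 CPM in cHSC. Because the libraries do not keep the strand, reads from the stretch they share cannot be told apart. In the comparison of cluster m7c (the HSC, 1 sum of 68 male cells) with the other mesenchymal clusters, *Fcna* was higher by 7.16 ± 0.90 on the log2 scale (edgeR, adjusted p = 8.51e-06). With 1 sum of HSC the fit takes its spread from the other clusters and assumes that HSC vary like them. With the 4 female cells as a second HSC sum the difference was 7.59 (adjusted p = 7.32e-09). In the male pool alone it differed by 9.02, a value with no test.

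*C6* was highest in Kupffer cells but reached other cells as well. It measured 802 CPM (male) and 1031 CPM (female) in immune pools, 56.4 and 10.8 CPM in parenchymal, 41.6 and 12.8 CPM in mesenchymal, and 5.61 and 3.61 CPM in endothelial pools. The immune class was higher by 5.90 ± 0.65 on the log2 scale (edgeR, adjusted p = 0.00105). Kupffer cells measured 1811 CPM (male) and 1065 CPM (female), and the 4 male plates (850 to 3360 CPM) surrounded the 2 female plates (1029 and 1369 CPM). The sKC of the male pool measured 1087 CPM, the male monocytes 8.72 CPM. Of the 469 Kupffer cells 461 (98.3%) held all of *C1qa*, *C1qb*, *C1qc*, *Fcna* and *C6*, and 409 (87.2%) held at least 20 counts of each. Of the i2c cells 1 of 41 did so at 20 counts. Over single Kupffer cells the Spearman correlation of *C1qb* with *C6* was 0.03 in female and 0.00 in male cells, given as a description.

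Outside the immune class *C6* was found in hepatocytes, stellate cells and SLC. The 201 male hepatocytes measured 141 CPM, and the hepatocyte clusters differed: p3, an *Aqp9* cluster of 23 cells, measured 526 CPM, p4 (periportal, 59 cells) 112 CPM, p5 (pericentral, 57 cells) 95.2 CPM and p1 (64 cells) 70.9 CPM. Cholangiocytes measured 2.13 CPM (male) and 11.1 CPM (female). Male HSC held 115 CPM, with 5 plates between 0.817 and 331 CPM, and the 4 female HSC 2.52 CPM. Male cHSC held 128 CPM and female cHSC 36.4 CPM. Male SLC held 107 CPM, with 5 plates between 3.53 and 154 CPM, and female SLC 66.9 CPM.

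**Figure D3:**
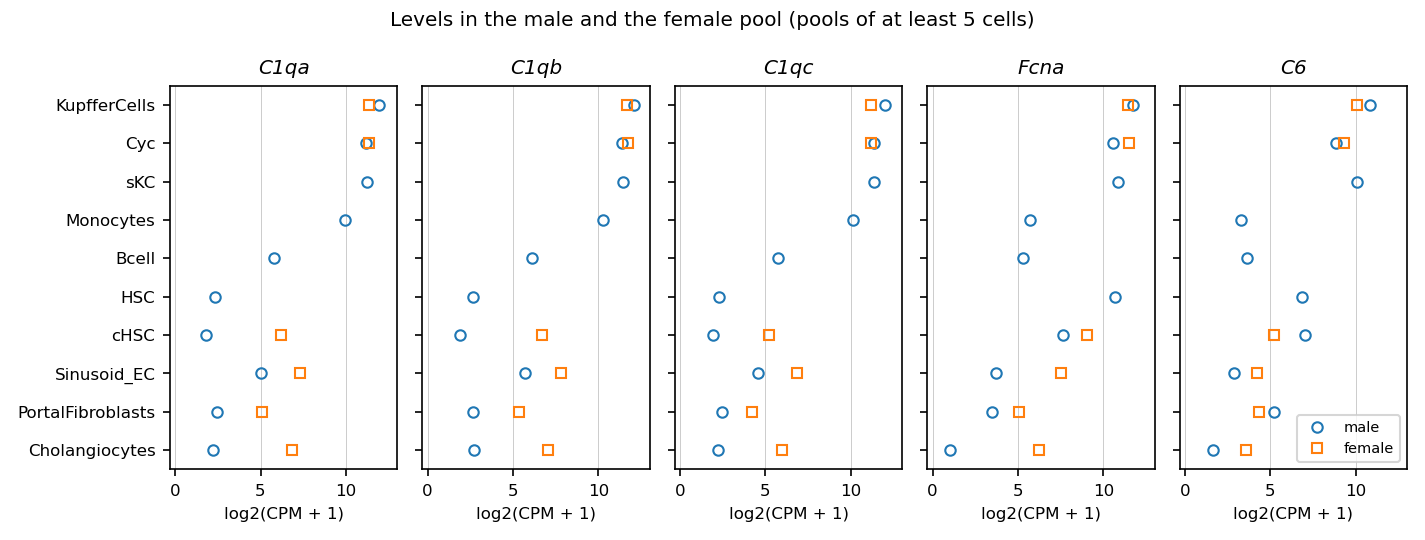
Levels of *C1qa*, *C1qb*, *C1qc*, *Fcna* and *C6* as log2(CPM + 1) in 10 annotated cell types, with the male (circle) and female (square) pool of each type where it held at least 5 cells. All 5 genes were high in Kupffer cells and in Cyc cells, *Fcna* and *C6* fell away in monocytes, and of these genes *Fcna* alone was over 1000 CPM in HSC.

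Within the immune class, clusters of Kupffer cells (i1, i3, i4, i6 and i7) were set against clusters i2 and i5. The clusters were drawn by the study on these same transcriptomes, so differences between them are in part built in. P-values here and in the other cluster comparisons measure only the spread between the male and female sums of clusters that held both. Here these were i1, i3 and i4 (3 residual degrees of freedom). Clusters i2, i5, i6 and i7 entered as 1 sum each and added no spread. Of the 9 genes 8 were called higher and 0 lower, where called means an adjusted p under 0.05 and a log2 difference of at least 1, and over all 20110 genes tested 2.35% were called in either direction, 0.995% higher and 1.35% lower. The median difference of the 9 genes was 4.33 on the log2 scale, against 0.09 over all genes. *C7* holds a place in this median though it gave no usable estimate. *Fcna* differed by 4.40 ± 0.31, *C6* by 4.33 ± 0.52, and *C1qa*, *C1qb* and *C1qc* by 3.51 ± 0.28, 3.53 ± 0.24 and 3.32 ± 0.28 (edgeR, adjusted p = 7.6e-14 or smaller). *C4b* was higher by 5.07 ± 0.71 (adjusted p = 4.48e-10).

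The calls of *Cfb* (4.33 ± 1.14, adjusted p = 0.0106) and *C3* (5.499 ± 1.58, adjusted p = 0.0278) were less firm. With the sex of the pool as a block, the adjusted p was 0.782 for *Cfb* and 0.222 for *C3*, and in the male pool alone *Cfb* differed by 1.55, a value with no test. Without the 26 cells annotated Cont, which the study named as mixed with endothelial cells, the adjusted p of *C3* was 0.727 and that of *Cfb* 0.0295. The 6 male Cont cells held 1982 CPM of *C3* and 325 CPM of *C7*. The side of i2 and i5 rested on 2 male sums (63 and 58 cells), and 9 of the 18 sKC lay in i2. *C7* gave no usable estimate. It measured 80.7 CPM in Cont cells, 0.331 CPM in Kupffer cells, 1.22 CPM in monocytes and 0 CPM in B cells.

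*C4b*, the fourth component and substrate of the C1 and MASP proteases, was high in mesenchymal cells and in Kupffer cells. The mesenchymal pools measured 1018 CPM (male) and 722 CPM (female), the immune pools 395 and 717 CPM, the parenchymal pools 63.2 and 116 CPM and the endothelial pools 8.71 and 2.77 CPM. *C4b* was higher in the mesenchymal class (3.80 ± 0.45, adjusted p = 0.00149) and in the immune class (2.98 ± 0.45, adjusted p = 0.00419), each against the mean of the other 3, and lower in the endothelial class (−6.03 ± 0.72, adjusted p = 0.00302, all by edgeR). The order over annotated types with both pools together was Mesothelial (3611 CPM, 6 cells), portal fibroblasts (1797 CPM), cHSC (850 CPM), Wt1_FB (766 CPM), Kupffer cells (757 CPM), PeriBilFB (630 CPM), SLC (594 CPM), Cyc (573 CPM), Cont (536 CPM) and HSC (438 CPM).

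Plates of cHSC, Wt1_FB, PeriBilFB and Kupffer cells overlapped. Those of cHSC ran from 206 to 1942 CPM, those of Wt1_FB from 281 to 1662 CPM, those of PeriBilFB from 472 to 1337 CPM and those of male Kupffer cells from 428 to 1085 CPM. The median of male plates was 407 CPM in cHSC, 943 CPM in Wt1_FB and 946 CPM in Kupffer cells. Female plates measured 1384 CPM in cHSC, 484 CPM in Wt1_FB, and 716 and 897 CPM in Kupffer cells. The place of cHSC in the order thus differed between the pools. Portal fibroblasts measured 1881 CPM (male) and 1604 CPM (female), with 6 male plates from 776 to 4337 CPM. Of the 463 portal fibroblasts 455 (98.3%) held a *C4b* count. Of the 469 Kupffer cells 444 (94.7%) held one, and the central 50% of these cells lay between 114 and 1158 CPM. *C4a*, with which *C4b* shares sequence, measured at most 3.83 CPM in Kupffer cells, portal fibroblasts, HSC, cHSC, hepatocytes and cholangiocytes. It measured 23.6 CPM in the 6 mesothelial cells.

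*C3*, the central component, was highest in fibroblasts and mesothelial cells rather than in hepatocytes. The mesenchymal pools measured 1354 CPM (male) and 1731 CPM (female), the parenchymal pools 903 and 2311 CPM, the immune pools 60.04 and 112 CPM and the endothelial pools 14.9 and 10.9 CPM. By edgeR *C3* was higher in the mesenchymal (3.72 ± 0.37, adjusted p = 0.000803) and the parenchymal class (3.64 ± 0.37, adjusted p = 0.000866), and lower in the endothelial class (−5.60 ± 0.58, adjusted p = 0.00196). The lower level in the immune class (−1.76 ± 0.45, adjusted p = 0.0380) was not called without the Cont cells (−2.08, adjusted p = 0.0634). It was also not called in fits that left out the male immune pool (−1.40) or any of the mesenchymal and endothelial pools (−1.87 to −1.68).

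Among mesenchymal cells *C3* ran from mesothelial cells down to stellate cells. The 6 mesothelial cells measured 11709 CPM (4 male) and 10403 CPM (2 female). Wt1_FB, fibroblasts that the study placed at the liver capsule, without excluding other sites, and named for the transcription factor gene *Wt1*, measured 4575 and 4790 CPM, portal fibroblasts 1887 and 3196 CPM, PeriBilFB, the peribiliary fibroblasts, 1232 and 1882 CPM, SLC, cells the study placed near central and perhaps portal veins, 674 and 999 CPM, cHSC 161 and 179 CPM, and HSC 10.9 CPM (69 male) and 107 CPM (4 female). The plates of Wt1_FB (3217 to 4841 CPM over 3 male plates, 4790 CPM on the female plate) overlapped those of portal fibroblasts (1162 to 3331 CPM over 6 male plates, 3196 CPM on the female plate). All 113 Wt1_FB held a *C3* count, and 111 held at least 20.

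In the parenchyma *C3* measured 1061 CPM (157 male cells) and 2356 CPM (37 female cells) in cholangiocytes, which line the bile ducts, and 655 CPM in the 201 male hepatocytes. Of the hepatocyte clusters p3 measured 1173 CPM, p4 953 CPM, p1 378 CPM and p5 310 CPM. Plates of male cholangiocytes (725 to 1892 CPM over 5 plates) and of male hepatocytes (186 to 702 CPM over 4 plates) did not overlap. The test of cholangiocytes against the hepatocyte clusters gave 0.69 ± 0.53 on the log2 scale (edgeR, adjusted p = 0.310), and 0.12 without the female pool, a value with no test. In this test each hepatocyte cluster was 1 male sum, so spread among hepatocyte sums of a cluster was not measured. Per 1000 counts of 6 hepatocyte markers there were 35.8 *C3* counts in hepatocytes, 192 in cholangiocytes and 2180 in portal fibroblasts. The markers summed to 6189 CPM in cholangiocytes (3598 CPM of it *Alb*) and 18285 CPM in hepatocytes, and their part in the *C3* and *Cfb* of cholangiocytes was not tested.

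*C7* was high in fibroblasts and low outside the mesenchymal class. It measured 534 CPM (male) and 119 CPM (female) in the mesenchymal pools, and at most 6.42 CPM in the other 6 pools, with a count in 0 of 451 female endothelial and 0 of 39 female parenchymal cells, with upper bounds of the exact 95% intervals at 0.815% and 9.025% of cells. The mesenchymal class was higher by 8.29 ± 1.503 on the log2 scale (edgeR, adjusted p = 0.00971). Portal fibroblasts measured 1003 CPM (male) and 299 CPM (female), PeriBilFB 746 and 174 CPM and Wt1_FB 723 and 86.8 CPM. SLC held 67.7 and 138 CPM, below these types in the male pool and above Wt1_FB in the female pool, and cHSC 48.2 and 16.97 CPM, while mesothelial cells, highest for *C3* and *C4b*, held 4.80 and 30.6 CPM.

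In all 3 fibroblast types the female pool lay below each male plate. Portal fibroblasts ran from 839 to 1577 CPM over 6 male plates (median 1062) and measured 299 CPM on the female plate. The sexes also lay in different clusters: all 93 female portal fibroblasts were in m1, with 88 male cells, while m8 (156 cells) and m10 (127 cells) were all male. Within m1 the male cells measured 1026 CPM of *C7* and the female cells 299 CPM. PeriBilFB ran from 671 to 937 CPM over 3 male plates against 174 CPM, and Wt1_FB from 571 to 903 CPM over 3 male plates against 86.8 CPM. In SLC the female plate (138 CPM) lay inside the range of 5 male plates (3.53 to 181 CPM). Since the female mesenchymal cells came from 1 plate, sex and plate cannot be told apart, and no test was made. *C3* in portal fibroblasts of the same female plate (3196 CPM) lay inside the range of the male plates.

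In male cells the portal fibroblast clusters m8, m10 and m1 measured 1118, 908 and 1026 CPM of *C7*. Of the clusters of Wt1_FB m11c (53 cells) measured 888 CPM and m12c (60 cells) 94.3 CPM. These last also differed in *C4b* (1234 and 310 CPM) while *C3* measured 4675 and 4636 CPM. The share of male cells was 48 of 53 in m11c and 34 of 60 in m12c. Of the 463 portal fibroblasts 411 (88.8%) held *C3*, *C4b* and *C7*, and 285 (61.6%) held at least 20 counts of each.

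*Cfb* was present at a lower level in several lineages. The parenchymal pools measured 279 CPM (male) and 461 CPM (female), the immune pools 116 and 398 CPM, the mesenchymal pools 60.3 and 76.3 CPM and the endothelial pools 25.1 and 44.8 CPM. *Cfb* was higher in the parenchymal class (2.03 ± 0.46, adjusted p = 0.0234) and lower in the endothelial class (−2.48 ± 0.58, adjusted p = 0.0384), both by edgeR. The first call was lost when a mesenchymal, a parenchymal or the male endothelial pool was left out (1.76 to 2.27), the latter when any pool other than an immune pool was left out (−3.03 to −2.10), and both with sums per plate (1.36 and −0.94). The difference of the immune class (1.54 ± 0.46, adjusted p = 0.0661) missed the threshold by edgeR, and reached it with the sex of the pool as a block (1.37, adjusted p = 0.0492).

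Kupffer cells measured 203 CPM (male) and 408 CPM (female) of *Cfb*, and the plates did not overlap: 4 male plates ran from 5.80 to 246 CPM and 2 female plates measured 404 and 444 CPM. At least 20 counts were held by 201 of the 469 Kupffer cells (42.9%). Cholangiocytes measured 299 and 473 CPM. Among hepatocytes, clusters p3 (732 CPM) and p4 (369 CPM) stood above p1 (70.9 CPM) and p5 (57.0 CPM). The 6 mesothelial cells measured 1534 and 1999 CPM, and PeriBilFB 128 and 385 CPM.

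**Figure D4:**
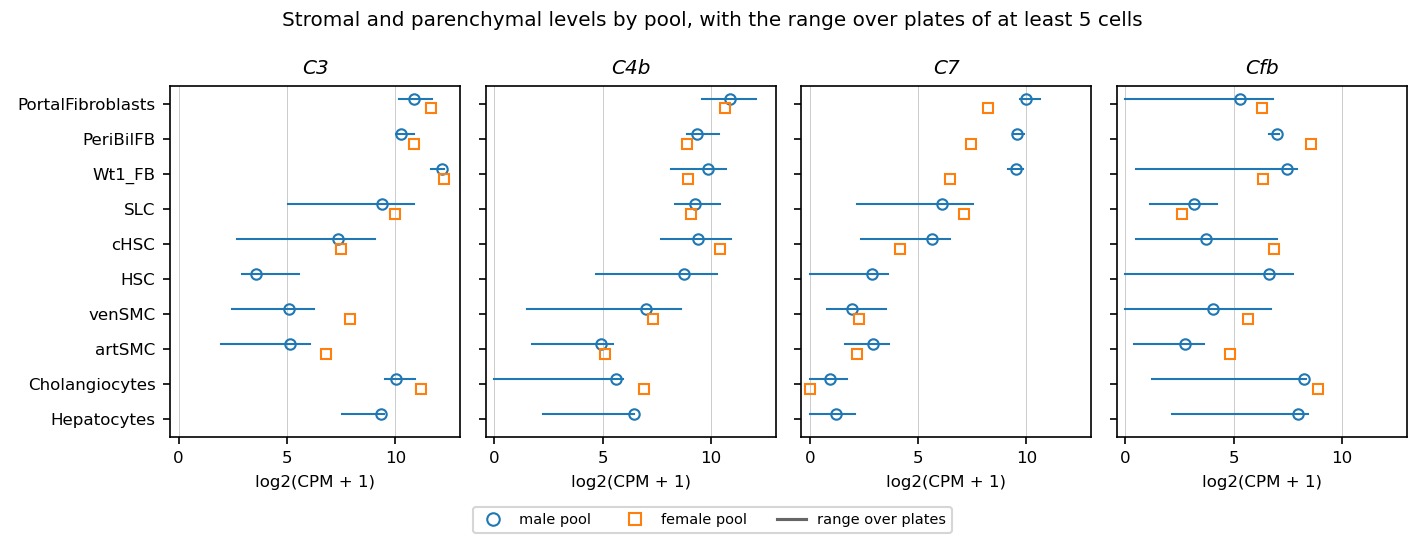
Levels of *C3*, *C4b*, *C7* and *Cfb* as log2(CPM + 1) in 10 annotated cell types, with the male (circle) and female (square) pool and, as a line, the range over male plates with at least 5 cells. For *C7* the female square lay left of the whole male line in portal fibroblasts, where all female cells lay in cluster m1 and male cells in m1, m8 and m10, and in PeriBilFB and Wt1_FB.

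Over the 9 genes, the immune class had 6 higher and 1 lower call, against 13.2% of 24046 genes called in either direction (7.92% higher, 5.25% lower). The median difference of the 9 was 5.65 on the log2 scale and that of all genes 0.09. The mesenchymal class had 3 higher (*C7*, *C4b* and *C3*) and 3 lower calls (*C1qa* −3.89, *C1qb* −3.80 and *C1qc* −3.93), against 11.8% of genes called (9.47% higher, 2.33% lower), with medians of −0.86 for the 9 and 0.02 for all. Without the male mesenchymal pool *C1qa* (−3.19) and *C1qb* (−3.22) were no longer called. The parenchymal class had 2 higher calls (*C3* and *Cfb*), against 12.4% of genes called (8.37% higher, 4.05% lower), with medians of −0.75 and −0.27.

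The endothelial class had 4 lower calls (*C4b*, *C3*, *C6* at −4.48 ± 0.91 and *Cfb*), where 8.28% of genes were called in either direction, 5.33% higher and 2.96% lower. The median of the 9 was −2.95 and that of all genes 0.04. With the sex of the pool as a block *C7* was also called (−4.83, edgeR, adjusted p = 0.0386). DESeq2 called 6 of the 9 genes, and the fit without the low-count filter all 9. Without the male or the female endothelial pool *C6* (−4.79 and −4.25) and *Cfb* (−2.10 and −3.03) were not called. Endothelial clusters e3, e5, e6, e7 and e8 were set against e1, e2 and e4. The former are annotated as sinusoidal cells except e7, whose 150 cells are all annotated CentralVein like those of e1. Of the 9 genes 0 were called by edgeR or by DESeq2, 0 had an unadjusted p under 0.05, and 1.92% of 18321 genes were called (0.759% higher, 1.16% lower). The medians were 0.82 for the 9 and 0.11 for all genes. With e7 on the other side, a fit added after seeing the data, 0 of the 9 were called, 1 had an unadjusted p under 0.05 (*C3*, −1.42, adjusted p = 0.282), and 2.72% of genes were called. Among endothelial types lymphatic cells (LEC) held the most *C3*, at 398 CPM (9 male cells) and 81.8 CPM (13 female cells). The LEC also held 364 CPM of fibroblast markers, 239 CPM of mural cell markers and 1029 CPM of hepatocyte markers, whose part in this value was not tested.

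Fibroblast clusters (m1, m4, m8, m9 and m10) against the other mesenchymal clusters had 4 higher and 0 lower calls, where 2.77% of 22365 genes were called (2.04% higher, 0.724% lower). *C7* was higher by 6.10 ± 0.48 on the log2 scale (adjusted p = 5.19e-07), *C3* by 4.16 ± 0.39 (adjusted p = 3.62e-06), *C4b* by 3.33 ± 0.27 (adjusted p = 6.6e-07) and *Cfb* by 2.08 ± 0.47 (adjusted p = 0.0176, all by edgeR). The medians were 1.61 for the 9 and 0.04 for all genes. In the male pool alone *C7* differed by 6.66 and in the female pool alone by 3.98, and *Cfb* by 3.46 in the female pool alone, values with no test. The call of *Cfb* was lost with sums per plate (2.37).

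HSC against the other mesenchymal clusters had 2 higher calls (*Fcna* and *C6*, at 4.68 ± 1.16, adjusted p = 0.0147) and 1 lower call (*C3*, −6.21 ± 1.18, adjusted p = 0.00136), where 3.09% of 21329 genes were called (2.89% higher, 0.202% lower). These calls too rest on 1 sum of 68 male HSC, with the spread taken from the other clusters. By edgeR 617 genes were higher and 43 lower, by DESeq2 60 and 271. With the 4 female HSC as a second sum *C6* (3.58, adjusted p = 0.0281) and *C3* (−3.72, adjusted p = 0.00141) were still called. *C6* was not called with the sex of the pool as a block (4.41, adjusted p = 0.089). *C7* (−4.12 ± 1.30, adjusted p = 0.0899) missed the threshold by edgeR and passed it under 5 alternatives, among them DESeq2 (−4.16), and *C4b* differed by −0.22 ± 0.69 (adjusted p = 1). The medians were 0.39 for the 9 and −0.01 for all genes.

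Cholangiocytes against hepatocytes had 1 call (*C6*, −5.32 ± 0.88, edgeR, adjusted p = 5.18e-05), where 37.3% of 16694 genes were called (28.6% higher, 8.67% lower). Each hepatocyte cluster entered as 1 male sum. The fit took its spread from the male and female sums of cholangiocytes alone (1 residual degree of freedom) and assumes that hepatocytes vary like them. The medians were 0.27 for the 9 and 1.38 for all genes. *Cfb* differed by 0.27 ± 0.57 (adjusted p = 0.734), and by −0.17 with sums per plate, and *Fcna* by 2.58 ± 1.09 (adjusted p = 0.0657). Kupffer markers summed to 425 CPM (female) and 24.1 CPM (male) in cholangiocytes, beside *Fcna* at 73.2 and 1.05 CPM, and their part in this value was not tested.

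**Figure D5:**
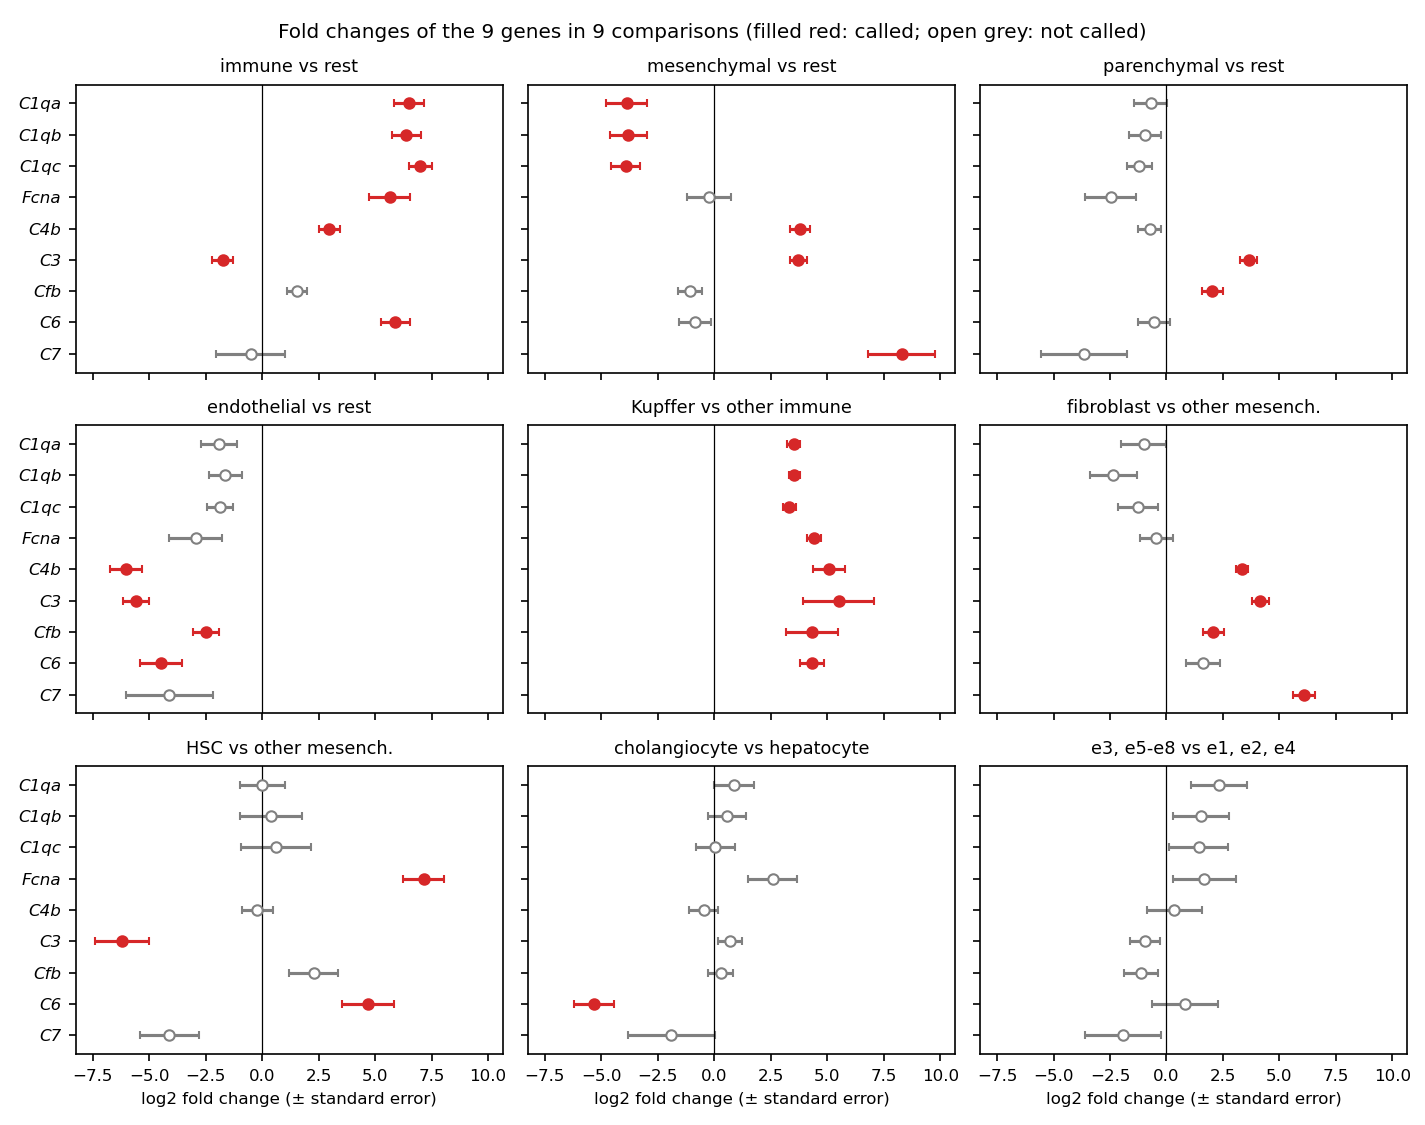
Log2 difference (horizontal axis, bars ± 1 standard error of edgeR's quasi-likelihood fit) of the 9 genes in 9 comparisons, with filled points where a gene was called. Kupffer clusters had 8 filled points to the right, and the endothelial class 4 to the left.

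Other complement genes, from a list of 43 named by role fixed with earlier results known, were counted in each comparison. In the immune class 8 of the 42 tested were higher and 6 lower (7.92% and 5.25% of all genes), with 7 of the 9 receptors among those higher: *Itgax* (8.55 on the log2 scale), *C5ar1* (7.81), *C3ar1* (7.58), *Vsig4* (7.38) and *Itgb2* (7.30) led. These encode integrin subunits of complement receptors, the receptors of the C5a and C3a fragments, and a macrophage receptor of C3b. Kupffer clusters had 4 higher and 0 lower of 37 tested (0.995% and 1.35% of all genes): *C3ar1* (4.40), *C2* (4.31), *Vsig4* (4.24) and *Cfp*, which encodes properdin (3.81). The median of the tested list was −0.71 in the immune class and 2.95 in Kupffer clusters, against 0.09 for all genes in each.

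In the mesenchymal class 10 of 42 were higher and 3 lower (9.47% and 2.33% of all genes), with 7 of 12 tested initiation genes higher. *C1s1* (7.42), *C1s2* (5.82) and *C1rb* (4.01), which encode C1 proteases or close relatives, were higher, as were *Colec11* (6.88), a collectin, and *Serping1* (5.13), the C1 inhibitor. In portal fibroblasts *C1s1* measured 842 CPM, but *C1s2* 0.410 CPM (48 counts in 463 cells) and *C1rb* 0.590 CPM (69 counts). The median of the list was −1.02, against 0.02 for all genes. In the same class the C1q genes were called lower, and *C1s1*, *C1s2*, *C1ra* and *C1rb* higher. HSC had 6 higher and 0 lower of 39 tested (2.89% and 0.202% of all genes), led by *Colec10* (8.90), *C8b* (7.89), *Cpn1* (5.66), *Masp1* (5.13) and *Mbl1* (5.03), from the same single sum of HSC. Of the 73 HSC 93.2% held a count of *Masp1* and 74.0% one of *Colec10*, but 5.48% one of *C8b* (11.1 CPM), 4.11% one of *Cpn1* (7.30 CPM) and 2.74% one of *Mbl1* (2.87 CPM). *Masp1*, the protease that ficolins and collectins bind, measured 1352 CPM in HSC and 1.14 CPM in Kupffer cells, and *Colec11* 2205 and 13.5 CPM, beside *Fcna* at 1686 and 2898 CPM. *Colec11* was 1 of the 4 stellate cell markers with which HSC were checked.

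In fibroblast clusters 3 of 41 were lower (0.724% of all genes), *Colec10* (−5.00), *Cd93* (−3.21) and *Colec11* (−1.12), and *C2* (1.33) was higher. The parenchymal class had 9 higher and 1 lower of 42 (8.37% and 4.05% of all genes), led by *Cpn1* (7.98), *Mbl1* (5.71), *C9* (5.61), *C4bp* (5.41) and *Cfi* (5.12). Cholangiocytes against hepatocytes had 4 higher and 14 lower of 37 (28.6% and 8.67% of all genes), and all 5 terminal pathway genes were lower, as *C8a* (−12.62), *Hc*, which encodes C5 (−11.58), and *C8b* (−7.38), besides *Mbl2* (−12.23) and *Cpn2* (−10.98). *C6* thus shared its direction here with the other terminal genes, while *C3* and *Cfb* were not called. These calls too rest on hepatocyte clusters of 1 male sum each. The endothelial class had 4 higher and 4 lower of 42 (5.33% and 2.96% of all genes), with *Cd55b* (5.92), *C5ar2* (4.38), *Cd59a* (4.15) and *Cd55* (3.91) higher and *C1s1* (−5.15) the largest of the lower. Clusters e3, e5, e6, e7 and e8 had 2 higher and 1 lower of 34 (0.759% and 1.16% of all genes): *Masp1* (2.74), *Cd55* (1.04) and *Serping1* (−3.87). With e7 on the other side *Masp1* (1.81), *Cd55* (1.22) and *Serping1* (−4.54) were again called. The medians of the list were −0.47 for fibroblasts, 0.00 for HSC, 0.67 for the parenchymal class, −0.92 for cholangiocytes, −1.42 for the endothelial class and 1.02 for e3 and e5 to e8, against all-gene medians of 0.04, −0.01, −0.27, 1.38, 0.04 and 0.11.

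The genes whose pattern was most like each of the 9 were ranked by Pearson's r of log2(CPM + 1) over the 30 clusters, among 16593 genes. Clusters of a class share mice and plates, so r is a description. *C1qa* was most like *C1qc* (0.99), *Aif1* (0.98) and *Folr2* (0.98), *C1qb* most like *C1qc* (0.98), *C1qa* (0.98) and *Folr2* (0.96), and *C1qc* most like *C1qa* (0.99), *C1qb* (0.98) and *Aif1* (0.98). *Fcna* was most like *Fcnaos* (0.99), *B430306N03Rik* (0.93) and *Adgre4* (0.92), and *C6* most like *Paqr9* (0.86), *Lyz2* (0.83) and *Acp5* (0.82). *C7* was most like *Itgbl1* (0.97), *Sfrp1* (0.96) and *Penk* (0.95).

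*C4b* was most like *Lrp1* (0.93), *Gpx3* (0.90) and *Itgb5* (0.88), and *C3* most like *Sdc2* (0.85), *Selenbp1* (0.84) and *Echdc2* (0.84). *Cfb* had the lowest values, with *Il18* (0.79), *Trf* (0.78) and *Gm20425* (0.77). Among the 9 genes r was 0.87 for *C1qa* with *Fcna*, 0.73 for *C1qa* with *C6*, 0.74 for *C3* with *C4b*, 0.72 for *C3* with *C7* and 0.66 for *C4b* with *C7*. *Gpx3* was 1 of the 4 fibroblast markers and *Trf* 1 of the 6 hepatocyte markers used to check the annotation.

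The annotation was checked against those marker lists, which is not an independent check. The study itself used *Clec4f*, *Vsig4* and *Folr2* to name Kupffer cells and *Reln*, *Lrat* and *Hgf* to define HSC at first. High sums in the types of that name are therefore in part built in. Kupffer markers summed to 15293 CPM in Kupffer cells, stellate cell markers to 8337 CPM in HSC, fibroblast markers to 8938 CPM in portal fibroblasts and hepatocyte markers to 18285 CPM in hepatocytes, with none of the markers at 0 in its own type. Cells annotated cHSC held 3284 CPM of stellate cell markers and 8161 CPM of fibroblast markers, and cholangiocytes 6990 CPM of their own and 6189 CPM of hepatocyte markers. Kupffer cells also held 2701 CPM of hepatocyte markers, of which 2233 CPM was *Trf*, and 532 CPM of endothelial markers. HSC held 1952 CPM of fibroblast markers, of which 1189 CPM was *Col1a1*. Their part in the levels of *C3*, *Cfb* and *C4b* was not tested.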

How the data were processed

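Single-cell libraries were made by the authors with Smart-seq2 and sequenced, and the deposited table holds whole-number read counts per gene and cell. Per the labels, the tools were bcl2fastq, Bowtie or Bowtie2, featureCounts of Subread and Seurat, on GRCm38 (mm10), with no versions in the labels. Per the study's methods, cells with few counts or genes, with many genes, or with a high share of mitochondrial or spike-in reads had been removed, as were cells taken to be contaminated, and doublets were not called here. Annotations and clusters are the deposited ones, drawn by the authors on the same transcriptomes.

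The 92 spike-in rows were left out, no row lacked a name and no column was left unused. Counts per cell ran from 47063 to 1128421 (median 228708) over 46517 genes. Counts were summed per class and pool (8 sums) or per cluster and pool (at least 5 cells), and tested with edgeR 4.0.16's quasi-likelihood test in R 4.3.3 (TMM factors, low-count filter, each side the mean of its units), with Benjamini-Hochberg adjustment over all genes tested. DESeq2 1.42.0 was an alternative. Steps were tested on simulated data. Intervals of shares are exact (Clopper-Pearson, 95%) and cover counting error only. CPM per kilobase used GENCODE vM21 lengths.

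All 9 genes were named in each comparison, other complement genes by the 5 called with the largest difference, and look-alike genes by the 3 highest r. A result for the higher genes of the fibroblast comparison is not reported here. The genes, lists and motifs were chosen with earlier results of these data known. Samples of a class share a replicate number (1 for male, 2 for female) with the other classes. Male minus female deviations correlated between classes at 0.112 to 0.187 over 12766 genes, all over 0.1, and fits with the sex of the pool as a block are given where they changed a call.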

Additional observations from a re-analysis of the deposited data

How the results depend on the processing

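Over 39 values of the 9 genes and 483 alternative values, 432 kept their direction and their side of the threshold or stayed within 1 standard error, 29 lost and 8 gained a call, 13 moved and 1 reversed. The 39 were the called values, *Cfb* in the immune class, *C7* in HSC, and *C3* and *Cfb* in cholangiocytes against hepatocytes. Calls that other values gained are not in this tally. The reversed value was *Cfb* in cholangiocytes against hepatocytes (0.27), which was −0.17 with sums per plate. The cause was not tested.

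Genes called in either direction changed with DESeq2's Wald test and without the low-count filter to 5655 and 5507 (immune, 3167), 4497 and 4210 (endothelial, 1992), 4292 and 4761 (mesenchymal, 2838), 5601 and 5066 (parenchymal, 2987), 1478 and 999 (fibroblasts, 619) and 1446 and 699 (e3 and e5 to e8 against e1, e2 and e4, 352), where the last number in each bracket is the count reported, and with DESeq2 to 984 for Kupffer clusters (472) and 331 for HSC (660). Sums per plate gave 3492 (endothelial), 1181 (Kupffer), 1228 (cholangiocytes, 6225), 164 (fibroblasts), 1360 (HSC) and 228 (e3 and e5 to e8). HSC gave 1290 with at least 3 cells per sum, and e3 and e5 to e8 641 with at least 10. Of the 9 genes, no filter called 9 (endothelial, 4) and 5 (parenchymal, 2), and cholangiocytes had 2 calls (1) with RLE factors, without the filter and with cells thinned to 50000 counts. For HSC DESeq2 called 60 genes higher and 271 lower, against 617 and 43. Levels moved with the mean over cells and with thinning to 4290 and 4303 CPM (*C1qb*, Kupffer cells, 3519), 1885 and 1854 CPM (*Fcna*, HSC, 1686) and 1995 and 1994 CPM (*C4b*, portal fibroblasts, 1797).

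Leaving out each pool in turn gave 1847 to 3096 genes (6 to 7 of the 9) for the immune class, 606 to 1894 (2 to 5) for the endothelial, 1528 to 2710 (4 to 6) for the mesenchymal and 1933 to 2852 (1 to 4) for the parenchymal class. *Cfb* lost its call in 5 of 8 such fits for the parenchymal and 6 of 8 for the endothelial class, and *C3* in 5 of 8 for the immune class. In cluster comparisons a fit without a pool has values but no test.

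With the sex of the pool as a replicate block, 169 genes were called for Kupffer clusters and 371 for HSC. The block ended the calls of *Cfb* and *C3* in Kupffer clusters and of *C6* in HSC, brought *Cfb* in the immune and *C7* (−4.83, adjusted p = 0.0386) in the endothelial class past the threshold, changed no other call, and had no residual degrees of freedom for cholangiocytes. The settings without Cont cells and with e7 on the other side (498 genes) were chosen after seeing the data.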
